A study of Mus musculus with 2 samples.

Results

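The 10 genes of the growth hormone and STAT5 response followed here in mouse liver sections were the growth hormone receptor gene Ghr, the transcription factor genes Stat5a and Stat5b, the feedback genes Cish, Socs2 and Socs3, the secreted products Igf1 and Igfals, and the transcription factor genes Onecut1 and Bcl6. They were picked by gene symbol, and all 10 were found among the 19465 genes listed. The choice was made with the ratio between the genotypes known, so those ratios are given as a description and carry no test.

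The samples were 1 liver section each of an AEG-1ΔMAC mouse, spelled AEG-1DMAC in the labels, in which myeloid cells lack AEG-1, and of a floxed control, AEG-1fl/fl, both assayed by probe-based spatial transcriptomics (ST) of fixed, paraffin-embedded tissue. Both mice carried floxed AEG-1 alleles (the gene is Mtdh), and in AEG-1ΔMAC a Cre under the myeloid Lyz2 promoter removes the gene from macrophages and other myeloid cells. Both were 27 weeks old, and the labels give a high fat/high sugar diet (HF/HSD) for 20 weeks from 7 weeks of age to both, but the text of the study assigns the control diet to the mice of this assay, so the diet of these mice is not settled. After filtering, AEG-1ΔMAC had 2140 spots with 45453286 unique molecular identifiers (UMIs) and AEG-1fl/fl had 2540 spots with 50322850 UMIs. Each genotype had 1 library and both sections carried the same slide label, so a difference between the genotypes cannot be told apart from a difference between mice or between sections.

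Levels are given as UMIs summed over the spots of a library and divided by its total, as counts per 1e6 UMIs (CPM). Probes differ between genes, so a level was compared between libraries and not between genes, and where a list names its genes of highest CPM this is the order of the counts only. A spot holds several cells, and fewer cells of a type and less RNA per cell cannot be told apart. The targeted gene Mtdh was at 66.3 CPM in AEG-1ΔMAC against 60.2 CPM in AEG-1fl/fl, but most of the RNA of a spot comes from hepatocytes, in which it is not deleted, so this does not check the deletion. Lyz2 had 25 and 41 UMIs. The summed markers of hepatocytes were at 152307 CPM in AEG-1ΔMAC against 220233 CPM in AEG-1fl/fl, and albumin alone took 8.80% and 14.2% of all UMIs. Summed markers of stellate cells (391.9 and 393.4 CPM) and of endothelial cells (391.4 and 396.7 CPM) were close in both libraries. Kupffer cell markers summed to 574.1 and 640.6 CPM, and erythroid markers to 111.7 and 168.4 CPM. Of the Kupffer cell markers, Marco (log2 ratio -1.38) and Fabp5 (-1.84, 33.3 against 118.8 CPM) were at least 2-fold lower in AEG-1ΔMAC. The others, Clec4f, Cd5l and Vsig4, had log2 ratios of 0.05, 0.21 and -0.07, so the markers did not move together. The part of these cells in the values of the members was not tested.

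Growth hormone is released from the pituitary and binds its receptor on hepatocytes, where the kinase JAK2 phosphorylates STAT5, which enters the nucleus and switches on target genes. Among these targets are Igf1 and Igfals, whose products circulate together as a growth-promoting complex, and Cish and Socs2, whose products damp the signal. In rodents the timing of growth hormone pulses, and with it STAT5 activity, differs between males and females and sets much of the sex-biased expression of the liver.

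STAT proteins bind the palindrome TTCNNNGAA, and it was searched in the RefSeq promoter windows of the members (GRCm38.p6, from 250 bases before to 50 bases after each start, on both strands, which give the same matches because the motif is its own reverse complement). Of all 32851 windows, 8.3% held the motif and 0.457% held it at least 2 times. Of the members, 9 had a window and 4 of these 9 held the motif (Cish, Socs3, Igfals and Bcl6), against 9.55% of all genes in the table. A gene can have several windows, and 6 of the 15 windows of these 9 members held the motif, against 8.3% of all windows. Cish and Bcl6 had at least 2 matches in 1 window. A match is a description of these letters and not of binding, which was not measured here. The sequences below are shown because Cish and Bcl6 lie at the opposite ends of the ratios between the genotypes, with Socs3 and Igfals as the other members with a match. Capitals mark the motif, and each line is 30 bases read 5′ to 3′ along the strand of the gene.

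Cish, chr9:107296654-107296683, plus strand, a pair of motifs from the start onward, in an annotated UTR exon: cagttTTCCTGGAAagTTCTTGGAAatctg
Socs3, chr11:117969501-117969530, minus strand, 154 bases before the start: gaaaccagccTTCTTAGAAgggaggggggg
Igfals, chr17:24878163-24878192, plus strand, 58 bases before the start: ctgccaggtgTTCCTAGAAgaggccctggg
Bcl6, chr16:23988951-23988980, minus strand, 118 bases before the start: agcaaattagTTCTCAGAAttccagaggcc
Bcl6, chr16:23981352-23981381, minus strand, 88 bases before a downstream start, the nearest of 3 matches there: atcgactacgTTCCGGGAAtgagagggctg

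Cish and Onecut1 were far apart between the genotypes, while Ghr, Stat5b and Igf1 were not. Cish, which encodes a suppressor of the activated receptor, was 23.6-fold higher in AEG-1ΔMAC, and Onecut1, which encodes the hepatocyte transcription factor HNF6 and is itself induced by growth hormone, was 12.1-fold higher. Socs3 and Socs2, which encode related suppressors, were 2.89-fold and 2.08-fold higher, the latter on few UMIs. Igf1 and Stat5b had log2 ratios of 0.09 and 0.02, and Bcl6 and Stat5a were lower.

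For Cish (chromosome 9, 107296026 to 107302784, plus strand, protein-coding; GENCODE coordinates on GRCm38 here and for the other members), 4206 UMIs were counted in AEG-1ΔMAC against 197 in AEG-1fl/fl. These were 92.5 CPM (95% Poisson interval 89.8 to 95.4) and 3.91 CPM (3.39 to 4.50), a log2 ratio of 4.56 (95% binomial interval 4.36 to 4.78). No other gene among the 6933 with a mean of at least 10 CPM had a higher ratio. Cish was below 10 CPM in AEG-1fl/fl and passed this minimum only through AEG-1ΔMAC, so its rank is a description only. These intervals hold the error of counting and leave out any spread among mice, for which there was no replicate. Onecut1 (chromosome 9, 74861921 to 74891781, plus strand) had 5692 and 519 UMIs, or 125.2 CPM (122.0 to 128.5) against 10.3 CPM (9.45 to 11.2). Its log2 ratio was 3.60 (3.47 to 3.73), rank 4 of the same genes.

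Socs3 (chromosome 11, 117966079 to 117970047, minus strand), which is induced by STAT3 as well as by STAT5, had 1116 and 428 UMIs. It was at 24.6 CPM in AEG-1ΔMAC against 8.51 CPM in AEG-1fl/fl, for a log2 ratio of 1.53 (1.37 to 1.69) and rank 34. Like Cish, it passed the minimum of 10 CPM only through AEG-1ΔMAC. Socs2 (chromosome 10, 95385362 to 95417180, minus strand), a brake on growth hormone signalling whose loss gives large mice, had only 267 and 142 UMIs. At 5.87 CPM (5.19 to 6.62) against 2.82 CPM (2.38 to 3.33), its log2 ratio was 1.06 (0.76 to 1.36), and it was below 2-fold under 3 other scalings and with matched spots (0.92 to 0.99). Its mean of 4.35 CPM left it below the minimum of 10 CPM, which the other 9 members passed. All 3 suppressor genes were thus higher in AEG-1ΔMAC, with ratios of very different size.

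The receptor side of the path differed much less. Ghr (chromosome 15, 3317760 to 3583492, minus strand) was at 661.0 CPM (653.5 to 668.5) in AEG-1ΔMAC against 523.7 CPM (517.4 to 530.0) in AEG-1fl/fl, for a log2 ratio of 0.34 (0.31 to 0.36). Stat5b (chromosome 11, 100780731 to 100850724, minus strand), the main STAT5 gene of liver, was at 57.8 and 56.9 CPM, and the interval of its log2 ratio of 0.02 (-0.05 to 0.10) spanned 0 and its sign turned under 3 other scalings. Stat5a (chromosome 11, 100859351 to 100885169, plus strand), which is divergent from Stat5b with 8626 bases between the starts of the genes, was at 13.2 CPM (12.1 to 14.3) in AEG-1ΔMAC against 21.4 CPM (20.1 to 22.7) in AEG-1fl/fl, 1.62-fold lower in the former, with a log2 ratio of -0.70 (-0.85 to -0.55). The 2 genes are close paralogs, and how far their probes tell them apart was not tested.

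Of the secreted products, Igfals (chromosome 17, 24865997 to 24882010, plus strand), which encodes the acid-labile subunit that holds IGF-1 in the circulation, was at 179.3 CPM (175.4 to 183.2) in AEG-1ΔMAC against 116.2 CPM (113.3 to 119.2) in AEG-1fl/fl. Its log2 ratio was 0.63 (0.58 to 0.67). Igf1 (chromosome 10, 87858265 to 87937042, plus strand) was at 766.2 CPM (758.2 to 774.3) and 719.0 CPM (711.6 to 726.5), a log2 ratio of 0.09 (0.07 to 0.11). That lay -0.05 from the median of all genes, and the sign of the Igf1 ratio turned under 3 of the scalings tried. Both encode parts of 1 circulating complex. Igfals was past 1.5-fold with CPM, and no longer so under the same 3 scalings, where its log2 ratio was 0.50, 0.50 and 0.48.

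Bcl6 (chromosome 16, 23965052 to 23988852, minus strand) encodes a repressor that binds many of the same sites as STAT5 and is itself repressed by growth hormone. It was at 72.0 CPM (69.6 to 74.5) in AEG-1ΔMAC against 131.2 CPM (128.0 to 134.4) in AEG-1fl/fl, which is 1.82-fold lower in the former, with a log2 ratio of -0.86 (-0.93 to -0.80) and rank 51 from the lowest. Bcl6 and Stat5a are also expressed in blood cells. The 4 neutrophil markers summed to 4.84 CPM in AEG-1ΔMAC against 18.6 CPM in AEG-1fl/fl, with S100a8 at 40 and 264 UMIs and S100a9 at 73 and 501. Among lymphocyte markers, the B cell genes Cd79a (120 and 266 UMIs) and Ms4a1 (59 and 161) were lower in AEG-1ΔMAC, whereas Cd3e of T cells (156 and 88) was higher, and the 5 markers summed to 11.3 and 12.2 CPM. The part of these cells in the values of Bcl6 and Stat5a was not tested.

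**Figure D1:**
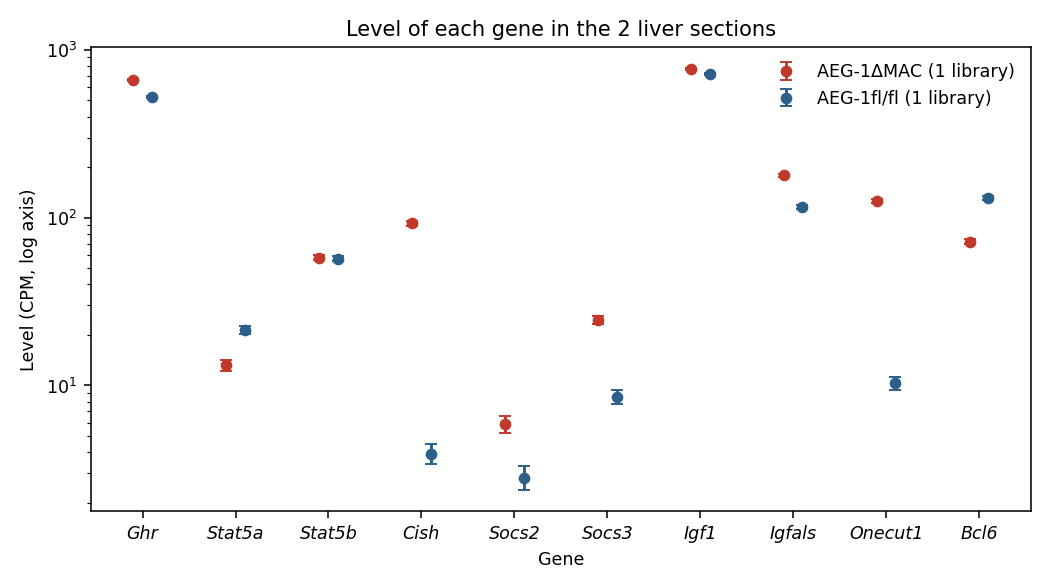
Level of each of the 10 genes in the AEG-1ΔMAC and the AEG-1fl/fl library (CPM, log axis); points are 1 library each and bars are 95% Poisson intervals. Cish at 92.5 against 3.91 CPM and Onecut1 at 125.2 against 10.3 CPM are the widest gaps, while the points of Stat5b (57.8 and 56.9 CPM) nearly coincide; heights are not comparable between genes.

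Among the 9 members that passed 10 CPM, 3 were at least 2-fold higher in AEG-1ΔMAC (Cish, Socs3 and Onecut1), where the background was 1.27% of all genes, and 0 were at least 2-fold lower (background 0.519%). At 1.5-fold, 4 were higher (background 4.3%) and 2 were lower (background 1.79%). Since the members were chosen with these ratios known, and Cish and Socs3 passed 10 CPM only through AEG-1ΔMAC, nothing is read from those counts. Over all 10 members, Socs2 included, the median log2 ratio was 0.48, beside 0.15 over all genes of at least 10 CPM. The 5th and 95th percentiles of those genes were -0.29 and 0.54. In the order of the ratios, the intervals of Igf1 and Stat5b overlapped, as did those of Stat5a and Bcl6, and all other neighbours were apart by more than counting error.

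**Figure D2:**
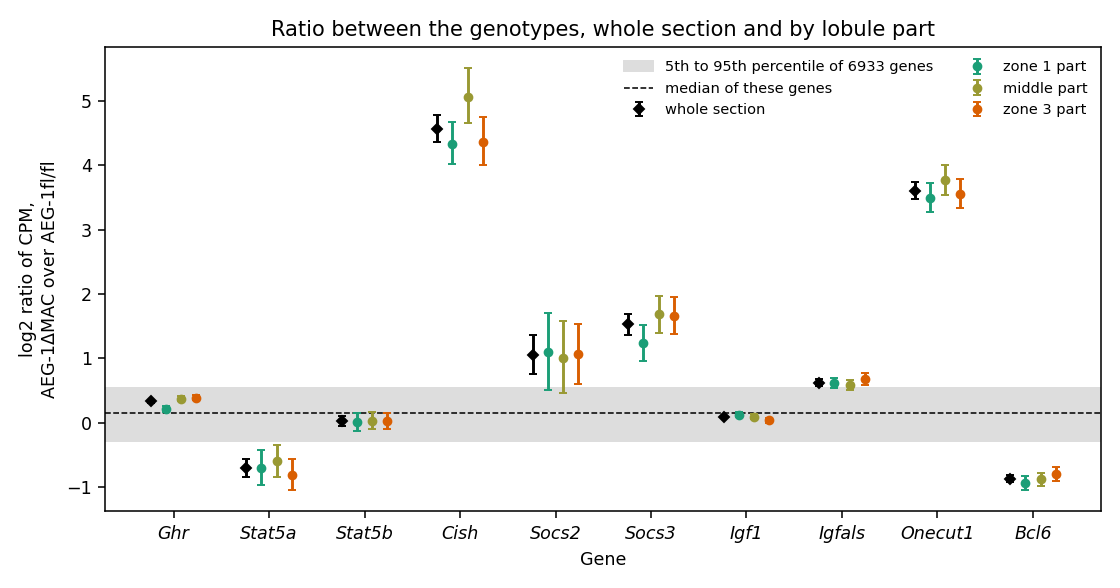
Log2 of the CPM in AEG-1ΔMAC divided by the CPM in AEG-1fl/fl, for each of the 10 genes over the whole section and in each of 3 parts of the lobule, with 95% binomial intervals, beside the median and the 5th to 95th percentile range of all genes. Cish (4.56), Onecut1 (3.60), Socs3 (1.53), Socs2 (1.06) and Igfals (0.63) lie above that range, and Stat5a (-0.70) and Bcl6 (-0.86) lie below it as whole-section values.

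The rest of the pathway was taken from lists of named genes, whose counts stand beside a background of 1.27% of all genes on the higher side of 2-fold and 0.519% on the lower side. Nothing is read from counts of 1 or 2 genes in lists this short. Of 20 other genes of the growth hormone signal path (kinases, adaptors, phosphatases and further suppressors), 15 passed 10 CPM and 0 were at least 2-fold apart, with a median log2 ratio of 0.14 beside 0.15 over all genes. Stat3, the acute phase counterpart of STAT5, was at 104.8 CPM in AEG-1ΔMAC against 96.5 CPM in AEG-1fl/fl. Prlr, the prolactin receptor gene, was at 99.1 and 90.0 CPM. Jak2, the kinase bound to the receptor, which was added after its values were seen, was at 19.5 and 19.0 CPM (0.04, -0.10 to 0.17).

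Of 13 genes of the IGF axis (receptors, binding proteins and their regulators), 7 passed and 0 were at least 2-fold apart, with a median of 0.08. The highest CPM in the list were those of the binding protein genes Igfbp4, at 1427 CPM in AEG-1ΔMAC against 1052 CPM in AEG-1fl/fl (log2 ratio 0.44), and Igfbp2, with a log2 ratio of -0.02.

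Sex-biased liver genes are classic readouts of STAT5 in rodents. The study used males and females, and its text gives no sex for the mice of this assay. Whether the 2 mice were of the same sex was not tested here. Of 20 male-biased genes listed, 15 were measured and passed, and 2 were at least 2-fold higher in AEG-1ΔMAC, Serpina12 at 94.7 and 23.1 CPM (log2 ratio 2.03) and Mup12 (2.15). The 2 with the highest CPM had ratios of opposite sign, Mup3 with 0.74 and Serpina1e with -0.83. The Mup and Serpina1 genes belong to families of near-identical copies, and which copy a probe reads is uncertain. The median was 0.34, while the sum over the list had a log2 ratio of -0.16. Of 18 female-biased genes listed, 13 were measured and 4 passed. Cyp2a4, a steroid hydroxylase gene, was at 25.8 and 7.99 CPM (1.69) and Fmo2 at 14.1 and 6.70 CPM (1.08), both higher in AEG-1ΔMAC. Both passed 10 CPM only through AEG-1ΔMAC. Within the libraries, Cyp2a4 was far higher near the central than near the portal vein (log2 ratio 3.05 in AEG-1ΔMAC, 2.05 in AEG-1fl/fl). The part of this in its ratio between the genotypes was not tested. Cyp17a1 had a log2 ratio of -0.34. The median of the 4 was 0.59.

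Socs3 is shared with the STAT3 pathway, so acute phase genes were read beside it. Of 16 listed, 14 were measured and 13 passed, with a median log2 ratio of -0.13. Orm2 (32.7 CPM in AEG-1ΔMAC against 6.04 in AEG-1fl/fl, log2 ratio 2.44) and Saa3 (14.9 and 6.62, 1.17) were at least 2-fold higher, and 0 were at least 2-fold lower. The fibrinogen genes Fgb and Fga had log2 ratios of -0.13 and -0.17. Orm2 and Saa3 belong to families of similar copies and are uncertain.

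Zonation was described next, because hepatocytes near the portal vein (zone 1) and near the central vein (zone 3) differ in hormone response and metabolism. Spots were ranked within each library by a zone index, which is the mean scaled value of Oat, Cyp1a2 and Cyp2e1, high in zone 3, less that of Arg1, Cyp2f2, Gls2, Hal, Hsd17b13 and Pck1, high in zone 1, and divided into 3 parts. Igf1, Igfals and Cish leaned to zone 1, and Ghr, Socs2 and both STAT5 genes leaned to zone 3. Of all 10 members, Socs2, which lies below 10 CPM, was the 1 past 1.5-fold between the outer parts, on the zone 3 side in both libraries. Over the genes of at least 10 CPM the background on that side was 2.93% of genes in AEG-1ΔMAC beside 2.8% in AEG-1fl/fl. On the zone 1 side, 0 members were past it, with a background of 1.95% and 1.68%.

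Igf1 ran from 849.9 CPM in the zone 1 part through 758.6 to 689.7 CPM in the zone 3 part of AEG-1ΔMAC, and from 777.2 through 709.3 to 670.4 CPM in AEG-1fl/fl. The log2 ratio of the zone 3 to the zone 1 part was -0.30 (95% binomial interval -0.34 to -0.26) and -0.21 (-0.25 to -0.18). Ghr ran the other way, from 567.8 through 666.3 to 749.3 CPM in AEG-1ΔMAC (log2 ratio 0.40, 0.36 to 0.44) and from 488.0 through 513.4 to 570.7 CPM in AEG-1fl/fl (0.23, 0.18 to 0.27). The receptor gene Ghr and Igf1, which encodes a secreted product, were therefore graded in opposite directions across the lobule in each section. The difference between the zone ratios of the libraries was 0.17 (0.12 to 0.23) for Ghr, and 29.5% of all genes had a larger difference. The 3 zone 3 markers that rank the spots themselves summed to 8543 CPM in AEG-1ΔMAC against 3498 CPM in AEG-1fl/fl, and the part of this in the gradient of Ghr was not tested.

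Cish was graded the same way as Igf1, from 99.8 through 95.9 to 81.8 CPM in AEG-1ΔMAC, a log2 ratio of -0.29 (-0.40 to -0.18). In AEG-1fl/fl it was at 4.95, 2.87 and 3.98 CPM, and the interval of its log2 ratio of -0.32 (-0.81 to 0.17) spanned 0. Socs2 ran from 4.77 to 7.66 CPM in AEG-1ΔMAC (0.68, 0.25 to 1.13) and from 2.23 to 3.67 CPM in AEG-1fl/fl (0.72, 0.10 to 1.35). The suppressor genes Cish and Socs2 thus had gradients of opposite sign in AEG-1ΔMAC. Onecut1 was at 119.6, 126.1 and 130.0 CPM in AEG-1ΔMAC (0.12, 0.03 to 0.21). In AEG-1fl/fl it was at 10.6, 9.30 and 11.1 CPM, and its log2 ratio of 0.06 (-0.25 to 0.37) ran from -0.01 to 0.47 over the zone settings, the highest with the outer 10% of spots.

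The STAT5 genes shared a shallow grade to zone 3. Stat5b had log2 zone ratios of 0.21 (0.08 to 0.35) in AEG-1ΔMAC against 0.19 (0.06 to 0.32) in AEG-1fl/fl, and Stat5a had 0.32 (0.03 to 0.61) and 0.43 (0.21 to 0.64). Igfals was graded slightly to zone 1, with -0.15 (-0.23 to -0.07) and -0.21 (-0.30 to -0.11). Bcl6 had 0.19 (0.07 to 0.32) in AEG-1ΔMAC against 0.06 (-0.03 to 0.15) in AEG-1fl/fl. Over all 10 members the median zone ratio was 0.20 in AEG-1ΔMAC against 0.06 in AEG-1fl/fl, beside 0.09 and 0.07 over all genes. With the outer 10% of spots at each end the medians were 0.24 and 0.24, and with spots matched on UMIs 0.27 and 0.15, so no difference between the libraries is read from them.

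**Figure D3:**
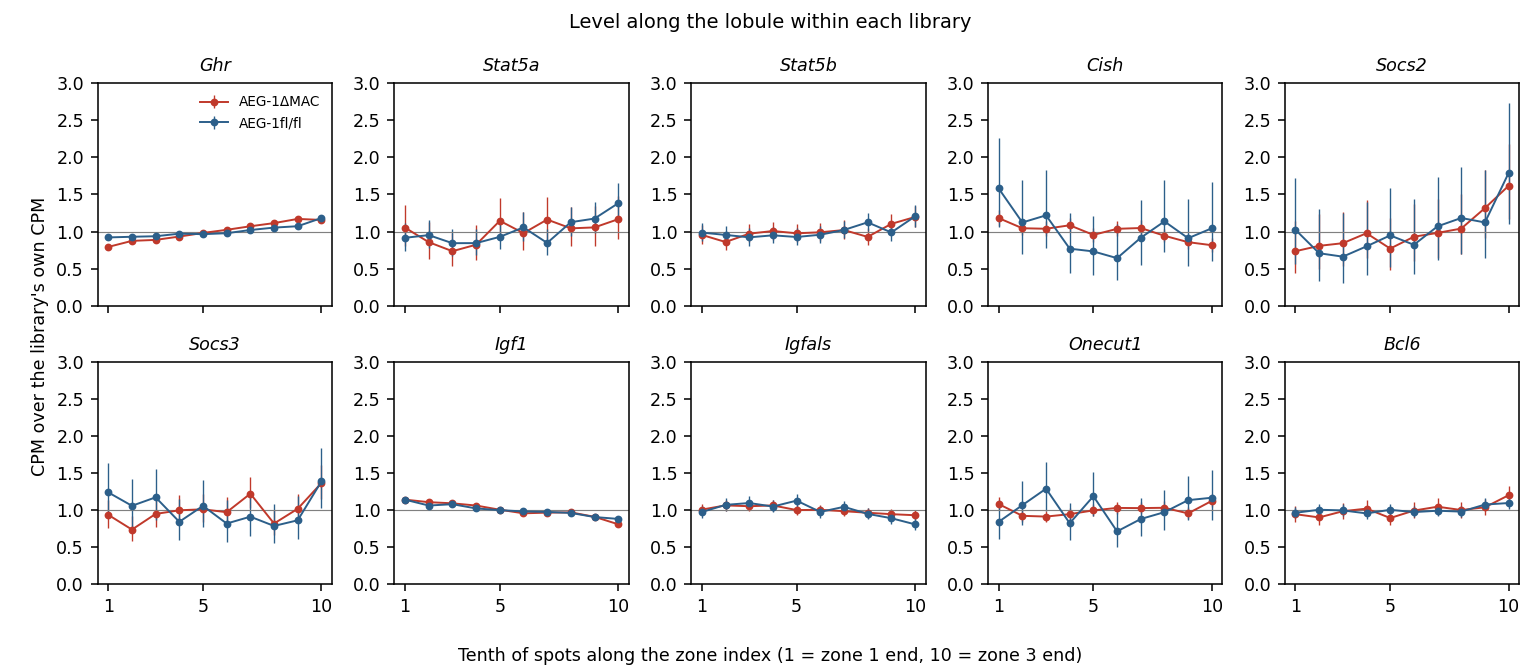
Level of each of the 10 genes along the lobule, as CPM in 10 bins of spots ranked from zone 1 (1) to zone 3 (10) divided by the gene's CPM in the whole library, for each library; bars are 95% Poisson intervals. Igf1 descends from 872.8 to 618.5 CPM and Ghr ascends from 523.9 to 764.2 CPM between the first and the last bin of AEG-1ΔMAC, and the wide bars of Cish and Socs2 in AEG-1fl/fl reflect their few UMIs.

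The difference between the genotypes held in every part of the lobule for the members with large ratios. The log2 ratio of Cish was 4.33 in the zone 1 part, 5.06 in the middle part and 4.36 in the zone 3 part. For Onecut1 the values were 3.49, 3.76 and 3.55, and for Socs3 1.23, 1.69 and 1.66. Socs2 had 1.09, 1.01 and 1.06. Cish was at its lowest, 2.87 CPM, in the middle part of AEG-1fl/fl. Of the members lower in AEG-1ΔMAC, Bcl6 had -0.93, -0.88 and -0.79 and Stat5a had -0.70, -0.59 and -0.80. Stat5b, at 0.01, 0.03 and 0.03, was close to equal in each part.

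Counts per spot show whether the higher levels came from a few spots or from many. To set aside depth, each spot was thinned to 10000 UMIs, which left 2114 AEG-1ΔMAC spots (26 shallower ones left out) and 2434 AEG-1fl/fl spots (106 left out). Cish then had at least 1 UMI in 60.0% of the AEG-1ΔMAC spots and 4.23% of the AEG-1fl/fl spots (83.5% and 7.40% before thinning). A Poisson spread of the same mean over all spots gives 60.7% and 4.30%. Onecut1 had a UMI in 71.6% and 10.3% of spots (90.7% and 17.8% before thinning), where a Poisson spread gives 71.1% and 10.4%. In AEG-1ΔMAC neither level thus came from a few spots. At means of 0.93 (Cish) and 1.24 (Onecut1) UMIs per thinned spot, these shares show little of a shallow gradient. Cish did fall from 109.3 to 75.5 CPM between the first and the last zone bin of that section.

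Socs3 had a UMI in 21.0% and 8.42% of thinned spots, and Socs2 in 6.53% and 2.71%. At means this low the share of spots with a UMI follows the mean and does not show how evenly a gene is spread, which also holds for Cish and Onecut1 in AEG-1fl/fl. Bcl6 had one in 51.5% and 72.3%. The Fano factor, which is the variance over the mean of the thinned counts and is 1 for a Poisson spread, was 1.05 and 1.03 for Cish and 0.985 and 1.04 for Onecut1. The 1644 genes of 50 to 200 CPM had a median of 1.02 in AEG-1ΔMAC, with 5th and 95th percentiles of 0.964 and 1.11. No thinned spot had more than 5 UMIs of Cish in AEG-1ΔMAC or 2 in AEG-1fl/fl.

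**Figure D4:**
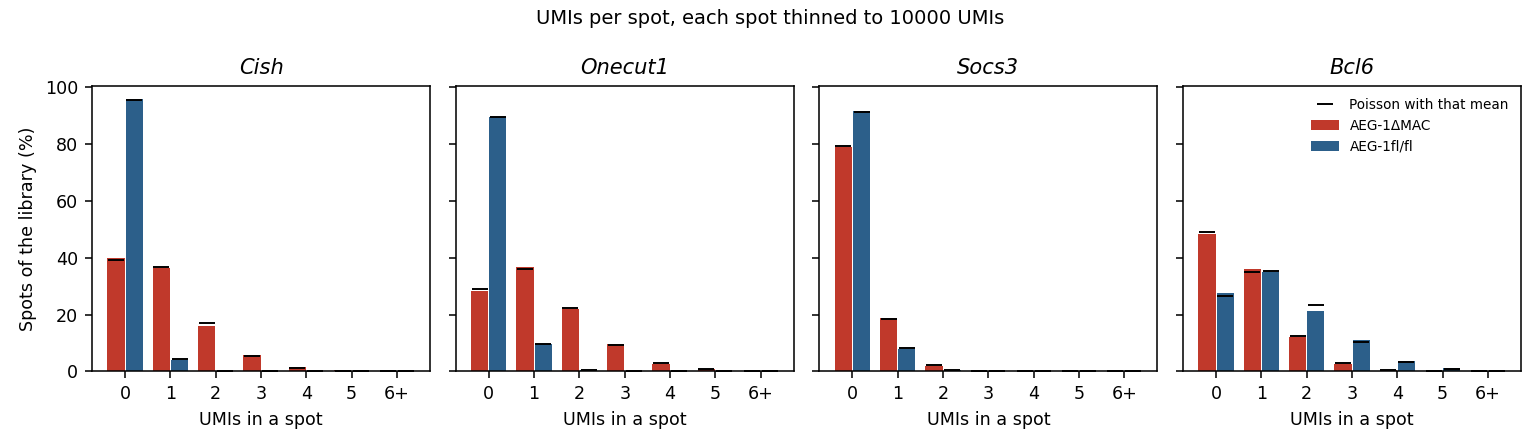
Share of spots (percent) by the number of UMIs of a gene per spot after thinning to 10000 UMIs, for Cish, Onecut1, Socs3 and Bcl6 in the 2 libraries; bars are spots counted and black ticks a Poisson spread of the same mean. Cish has at least 1 UMI in 60.0% of AEG-1ΔMAC spots against 4.23% of AEG-1fl/fl spots, and the counts stay low without a tail of very high spots.

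Whether spots rich in receptor and STAT5 RNA were also rich in feedback RNA was read from rank correlations over thinned spots of a section. For these correlations the feedback genes were Cish, Socs2 and Onecut1, and Socs3 was left out. Spots of a section share a library, a zone pattern and neighbours, so these are descriptions. Over the 9 pairs of Cish, Socs2 and Onecut1 with Ghr, Stat5a and Stat5b, Spearman's rho had a median of 0.02 and ran from -0.03 to 0.03 in AEG-1ΔMAC, with 6 pairs above 0. In AEG-1fl/fl the median was 0.01, from -0.03 to 0.04, again with 6 pairs above 0. Cish with Ghr had 0.02 and -0.02, and Cish with Onecut1 0.01 and 0.02. For Cish, the middle 90% of its correlations with 2181 genes of at least 50 CPM spanned -0.04 to 0.04 in AEG-1ΔMAC, and its own pairs with the receptor and STAT5 genes lay inside that span. In AEG-1fl/fl, Socs2 with Stat5a and Onecut1 with Stat5b, both at 0.04, lay just above the 95th percentile of the correlations of Socs2 and of Onecut1 with these genes, which were below in 96.7% and 96.4% of cases. Values this weak in sparse counts are no finding.

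Among all 45 pairs of members, the value farthest from 0 in AEG-1ΔMAC was that of Igf1 with Ghr, at -0.09, and the same pair had -0.04 in AEG-1fl/fl. These are genes that also run in opposite directions across the zones. Within the zone parts, the median of the 9 feedback pairs was 0.02 and 0.01.

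**Figure D5:**
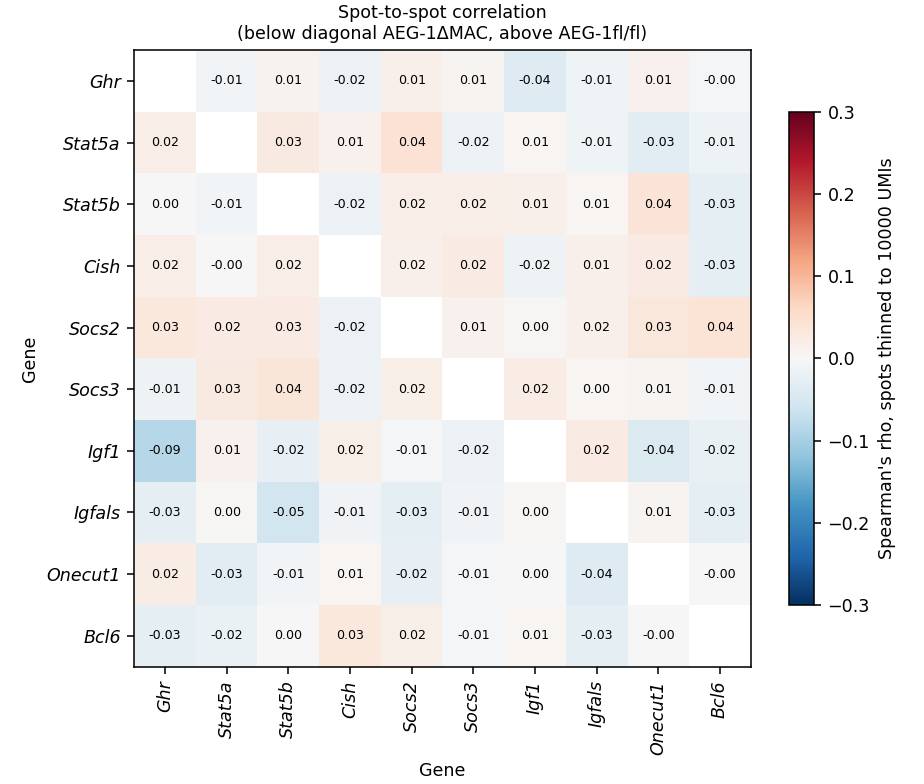
Spearman correlation across thinned spots for each pair of the 10 genes, with AEG-1ΔMAC below the diagonal and AEG-1fl/fl above it. Nearly all pairs are close to 0, and Igf1 with Ghr is the most negative in AEG-1ΔMAC (-0.09).

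The genes whose spot pattern was most like that of a member were found among those of at least 50 CPM by the lower of its 2 correlations. For Ghr these were Mup11 (0.24 in AEG-1ΔMAC against 0.16 in AEG-1fl/fl), Cyp2e1 (0.28 and 0.15) and Cyp2c29 (0.28 and 0.14), which are high in zone 3. For Igf1 they were Mup3 (0.21 and 0.19), Cyp2f2 (0.23 and 0.18) and Hpx (0.19 and 0.18), which are high in zone 1. The Mup genes are uncertain, as above. Cish, Socs2 and Onecut1 had only weak matches. These were Pck1, Cmah and Ftcd for Cish (Pck1 at 0.06 and 0.05), and Cct8, Oat and Ugt1a1 for Socs2 (Cct8 at 0.07 and 0.07). For Onecut1 they were Tle5, Bmp1 and Gadd45gip1 (Tle5 at 0.05 and 0.05).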

How the data were processed

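The authors ran Visium for FFPE on 1 liver section per genotype, and the submitters' processing notes name Space Ranger 2.0.1, Seurat 4.3.0 and mm10. The deposited matrices hold raw UMI counts per gene and spot, not normalised, and 1782 barcodes, which are slide positions, occur in both. Spots with at most 50000 UMIs and 100 to 7000 genes were kept, which left out 9 of the 2149 deposited for AEG-1ΔMAC and 3 of the 2543 for AEG-1fl/fl. Counts were summed per library and divided by its total (CPM); 10 CPM stood for 454.53 and 503.23 UMIs. Ratios have exact conditional binomial (Clopper-Pearson) and levels exact Poisson 95% intervals, checked on simulated data. With 1 library per genotype there is no test and no p-value.

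The median spot had 20929.5 and 18285 UMIs. The members and lists were chosen with earlier results of these data known. Named genes were the members, Mtdh, Lyz2, list genes of at least 10 CPM and 2-fold, the 2 of highest CPM in each list, and the 3 genes most like Cish, Socs2, Onecut1, Igf1 and Ghr; others are said to be chosen afterwards or stand as cell or zone markers. Alternatives were other scalings (edgeR 4.0.16 TMM factors, median-of-ratios, the total without the 50 most abundant genes), all spots, matched spots, spot means, other thresholds, zone indices and treatments of depth. Python 3.11.15, NumPy 2.4.6, SciPy 1.17.1, pandas 2.3.3 and R 4.3.3 were used. Promoter windows came from RefSeq (GRCm38.p6), which had none for Socs2, and coordinates from GENCODE M21, another release than the authors' own. Spot positions were not used here.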

Additional observations from a re-analysis of the deposited data

Results flagged for a closer look

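Socs3 lay on opposite sides of the zone axis in the libraries. Its log2 ratio of the zone 3 to the zone 1 part was 0.27 (95% interval 0.05 to 0.48) in AEG-1ΔMAC, beside -0.16 (-0.50 to 0.18) in AEG-1fl/fl, where it had 428 UMIs in all. The difference between them was 0.43, with a counting interval of 0.03 to 0.82, and 3.81% of all genes had a larger one. With 1 section per genotype the difference was not tested, and over the zone settings tried the AEG-1fl/fl value ran from -0.16 to 0.16.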

How the results depend on the processing

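The log2 ratios of Cish (4.42 to 4.64 over all scalings and spot choices), Onecut1 (3.46 to 3.61), Socs3 (1.39 to 1.59), Stat5a (-0.84 to -0.68) and Bcl6 (-1.01 to -0.84) kept their sign, as did Socs2 (0.92 to 1.06), Igfals (0.48 to 0.63) and Ghr (0.19 to 0.34). Over all genes the median lay at 0.15, which became 0.02 under TMM, 0.02 under median-of-ratios factors and 0.00 when the 50 top genes left the total. Under those 3 scalings the members' median of 0.48 became 0.36, 0.35 and 0.34, and Igf1 turned from 0.09 to -0.0325, -0.0382 and -0.0505, in each case by about the shift of all genes. Stat5b turned from 0.02 to -0.10, -0.11 and -0.12 there, and to -0.01 with spot means. Igfals lost its 1.5-fold call, and Socs2 its 2-fold ratio, under those scalings, Socs2 also with matched spots (0.99). Members at least 2-fold lower numbered 1 (Bcl6) with those 50 genes left out, and 2 at a ratio of 1.5. With the Poisson part of the variance removed, the median correlation of feedback with receptor genes was 0.10 in AEG-1ΔMAC, beside 0.51 in AEG-1fl/fl, from the 2 and 3 of 9 pairs for which it could be computed, so it describes few pairs. No paired analysis was possible because each genotype had 1 library. Depth limits Socs2 and, in AEG-1fl/fl, Cish, with 142 and 197 UMIs, whose gradients there have wide intervals.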
